A study of Mus musculus with 12 samples.

Results

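Cytosolic ribosomal protein genes were examined in mouse embryonic stem cell progenitors. The genes were chosen by symbol alone (Rpl or Rps with a digit, Rpsa, and Rplp0 to Rplp2, without pseudogenes and S6 kinases), each represented by the brightest of its probe sets on average. The rule found 50 of the 18193 genes on the arrays, of which 47 passed the filter on dim probe sets. Embryonic stem cells were differentiated in hanging drops, and embryoid bodies were dissociated on day 6. Cells carried dsRed under a second heart field reporter and eGFP under a cardiac enhancer, and were sorted by flow cytometry. The 4 populations were double-positive cells (dsRed and eGFP), red-only cells (dsRed without eGFP), green-only cells (eGFP without dsRed) and double-negative cells (neither). All 4 came from a single reporter system, and each had 1 array in each of the experiments A, B and C, which gave 3 arrays per population.

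The ribosome is the particle that translates mRNA, and its small subunit reads the message while its large subunit joins the amino acids. Each subunit is made of ribosomal RNA and many different proteins, which are needed in nearly equal numbers and are assembled in the nucleolus. Their mRNAs are very abundant in growing cells, and most begin with a stretch of pyrimidines, the 5′ terminal oligopyrimidine tract, through which mTOR signalling controls their translation.

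The labels state which reporters each population carried, and cardiac marker genes followed them. The summed intensity of 6 cardiac markers was 15950.2 to 19982 units in double-positive, 2937 to 4584 in red-only, 8521 to 10774 in green-only and 308 to 497 in double-negative arrays. Double-negative arrays held the most signal of pluripotent markers (1427 to 1701 units over 6 genes), against 96.2 to 116 in double-positive, 106 to 142 in red-only and 116 to 148 in green-only arrays. The double-negative cells are defined by the absence of both reporters, and the labels do not say which cell types they hold. The ratio of the 3′ to the 5′ actin control, which tracks RNA integrity, was 1.40 to 1.55 in double-positive and 1.34 to 1.36 in double-negative arrays. It was 1.32 to 1.48 in red-only and 1.33 to 1.44 in green-only arrays. The same ratio of the Gapdh control overlapped, at 0.942 to 0.951 in double-positive and 0.910 to 0.970 in double-negative arrays.

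Of the 47 tested members, 22 encode proteins of the large subunit and 22 of the small subunit, and Rplp0 and Rplp2 form the stalk that recruits elongation factors. The remaining one, Rps19bp1, binds Rps19 and is no ribosomal protein, but its symbol meets the rule. Of all 50 members, 34 had a mean of at least 1000 intensity units (1317 to 6712), and all 34 were among the 100 brightest genes of the arrays. A further 4 lay between 292 and 636 units, and 12 lay under 200 units. The intensity of a probe set depends on its probes as well as on the transcript, and several dim members (Rpl12, Rpl14, Rps6, Rps25 and Rps27) were read by a dim probe set. The 3 members below the filter were Rpl39l, Rpl3l and Rps16. Rpl39l, a paralog of Rpl39, was at 4.24, 4.69 and 3.72 units in double-positive cells and at 4.43, 11.4 and 8.88 units in double-negative cells A, B and C. Only the double-negative B and C arrays stood above the others, and no test was made. A further 31 ribosomal protein genes, among them Rpl3, Rpl5, Rpl10, Rplp1, Rps27a, Rpl35a and Rpl36a, were read only by probe sets that list several genes and are not members.

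Ribosomal protein genes had lower values in double-positive cells than double-negative cells, by a small amount. Of the 47 tested, 22 fell and 0 rose at an adjusted p under 0.05 (limma, two-sided, adjusted over all 13698 genes tested), against a background of 31.5% of genes called, 17.6% lower and 13.9% higher. The fold change was below 0 for 46 of the 47 members and for 51.6% of all genes. Their median log2 fold change was -0.19, which is 12.6% lower, against -0.01 over all genes. In 37 members the 3 double-positive arrays all lay below the 3 double-negative arrays, which held for 24.6% of all genes, and in 0 members they all lay above (20.1% of all genes). Among genes at or over the 90th percentile of probe sets, a limit far below the intensity of most members, 30.6% fell and 25.9% rose, and their median was -0.04. These 2 shares came from a separate fit, adjusted over those 2892 genes alone, so their threshold differs from that of the 22 members.

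**Figure D1:**
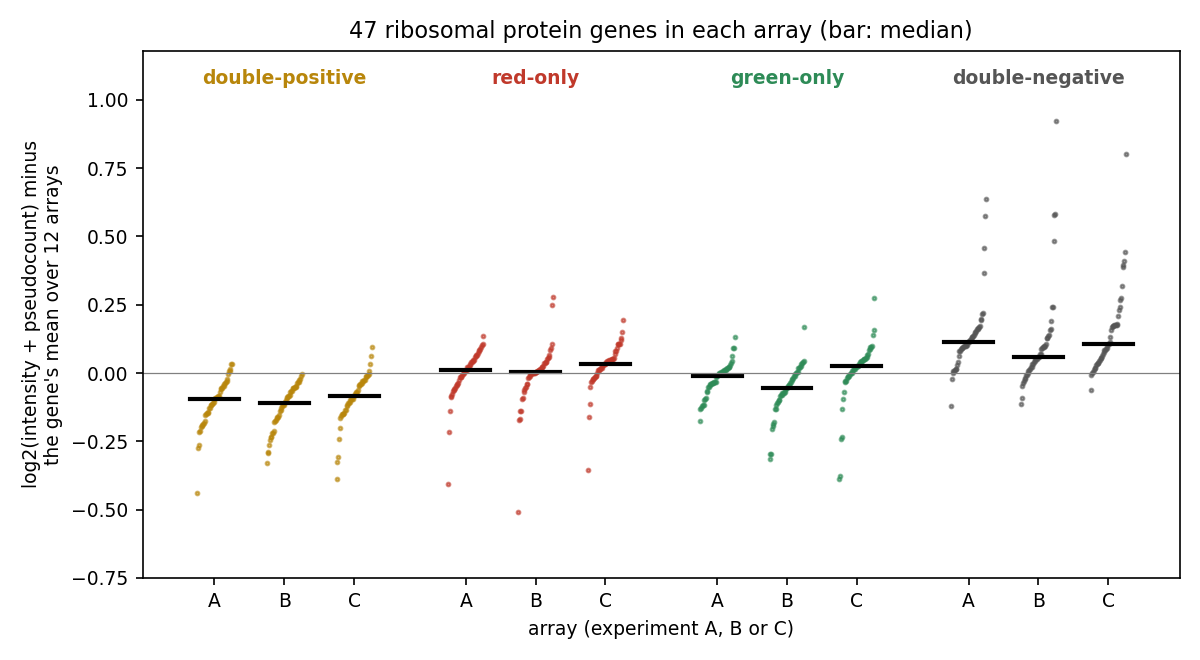
Deviation of each of 47 ribosomal protein genes from its own mean over the 12 arrays, on the log2(intensity + 4.10) scale, in 3 arrays per population (points: genes; bars: medians). The double-positive medians lie between -0.11 and -0.08 and the double-negative medians between 0.06 and 0.11, with the red-only and green-only medians between them.

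Both subunits took part. In the large subunit 10 of 22 members fell, with a median of -0.19, and in the small subunit 9 of 22 fell, also with a median of -0.19. Both stalk members fell. Within the experiments the members' median difference was -0.21 in A, -0.19 in B and -0.20 in C, with 45, 44 and 45 of the 47 members lower. The members' share of the summed intensity was 9.57 ± 0.25% in double-positive, 10.5 ± 0.09% in red-only, 10.2 ± 0.33% in green-only and 10.9 ± 0.10% in double-negative arrays (SD, n = 3 each). The count rested on the arrays used: it was 13 without the double-positive B array and 14 without the double-negative C array. In bulk samples such as these, fewer cells of a type and less RNA per cell cannot be told apart, and the labels do not state separate cultures, so p-values measure the spread between these arrays.

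**Figure D2:**
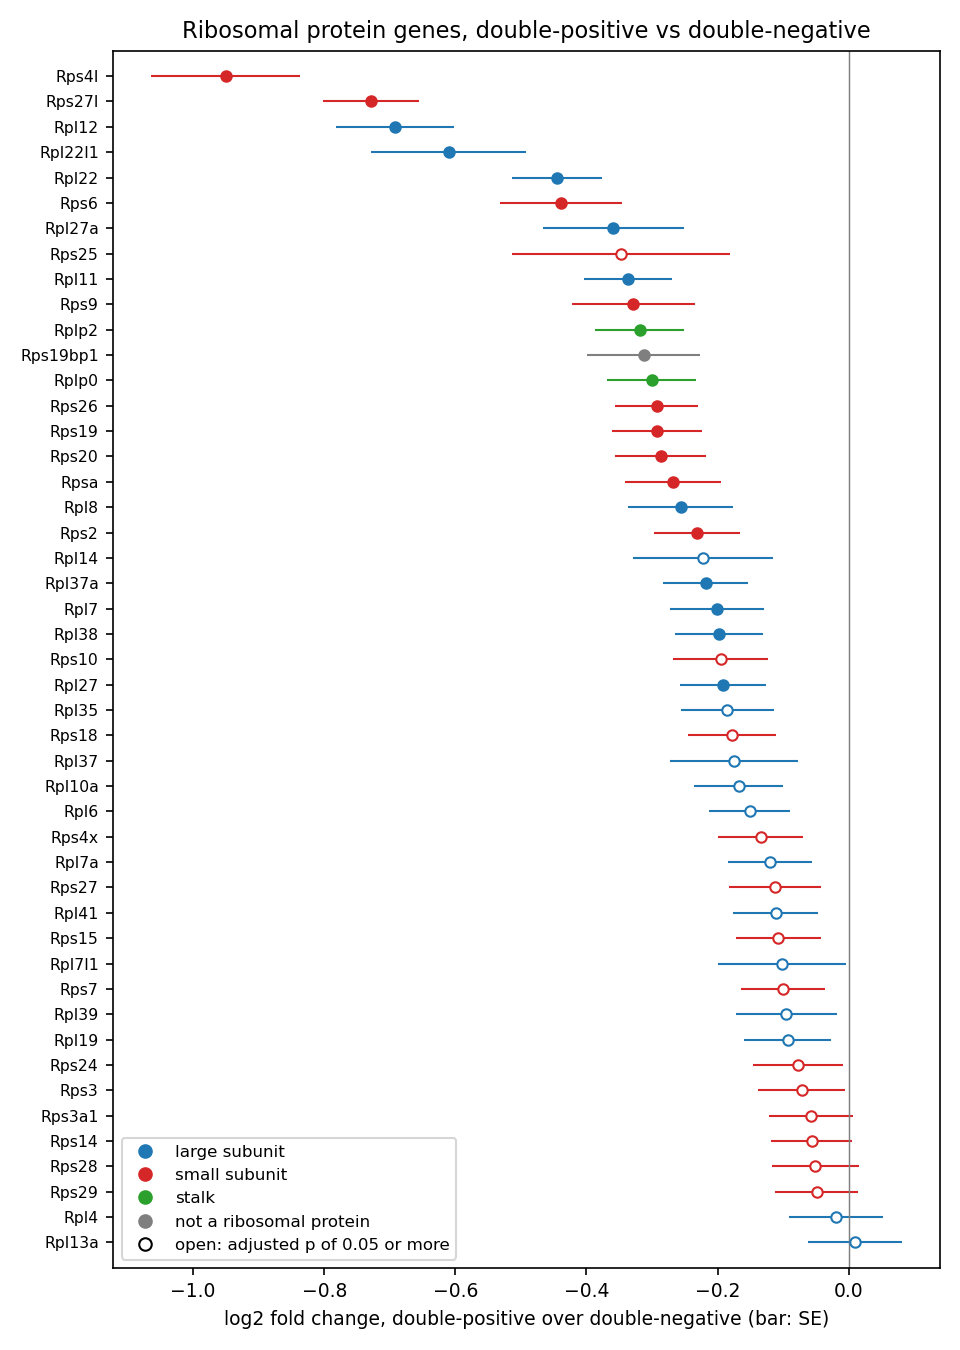
Log2 fold change (with its SE) of the 47 tested members, double-positive over double-negative, sorted and coloured by subunit. Filled points have an adjusted p under 0.05. The changes run from -0.95 for Rps4l to 0.01 for Rpl13a, and large and small subunit members are interleaved.

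The 4 members with the largest falls included 3 paralogs of core ribosomal proteins: Rps4l, Rps27l and Rpl22l1. Rps4l, named for its likeness to the small subunit protein Rps4x, was at 121, 101 and 94.5 units in double-positive cells A, B and C, against 186, 228 and 209 units in double-negative cells. All 3 double-positive arrays lay below the double-negative arrays. The log2 fold change was -0.95 ± 0.11 (SE), with an adjusted p of 3.51e-05. Rps27l, a close paralog of Rps27, was at 519, 525 and 496 units in double-positive cells, against 858, 874 and 829.6 units in double-negative cells. It showed no overlap between these groups, with a log2 fold change of -0.73 ± 0.07 and an adjusted p of 8.15e-06. Rpl22l1, the paralog of Rpl22, was at 417, 462 and 479 units in double-positive cells, against 661, 672 and 748 units in double-negative cells. Its log2 fold change was -0.61 ± 0.12, with an adjusted p of 0.00146. Rpl12, a large subunit protein at the base of the stalk, was at 21.9, 17.0 and 18.3 units in double-positive cells, against 34.3, 34.5 and 30.9 units in double-negative cells. These values are low on the array, and the change was -0.69 ± 0.09 with an adjusted p of 6.30e-05.

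Rpl22 itself, an RNA-binding protein of the large subunit that is needed for normal lymphocyte development in the mouse, was at 1646, 1691 and 1794 units in double-positive cells, against 2280.4, 2353 and 2355 units in double-negative cells. The groups did not overlap, and the log2 fold change was -0.45 ± 0.07 with an adjusted p of 0.000265. A second Rpl22 probe set gave -0.50 and passed the threshold when every probe set was tested on its own, and another gave -0.18 and did not pass. Rps6, the substrate of the S6 kinases, was at 59.5, 56.0 and 49.9 units in double-positive cells, against 73.2, 71.4 and 83.9 units in double-negative cells. Its change was -0.44 ± 0.09 with an adjusted p of 0.00267. Rpl11, which with Rpl5 carries 5S ribosomal RNA into the large subunit and can bind the p53 regulator Mdm2, was at 1159.6, 1093 and 1193 units in double-positive cells, against 1468, 1401 and 1483 units in double-negative cells. Its change was -0.34 ± 0.07 with an adjusted p of 0.00171, and these groups did not overlap.

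Both stalk proteins fell. Rplp0 was at 3185, 3274 and 3533 units in double-positive cells, against 4081, 4064 and 4152 units in double-negative cells, a change of -0.30 ± 0.07 with an adjusted p of 0.00406. Rplp2 was at 2447, 2559 and 2575 units in double-positive cells, against 3251, 3061 and 3147 units in double-negative cells. That was a change of -0.32 ± 0.07, with an adjusted p of 0.00293. Neither gene had double-positive and double-negative arrays that overlapped. Rpsa, which is also known as a laminin receptor, changed by -0.27 ± 0.07 (adjusted p = 0.0135). Its call did not hold under quantile normalization (adjusted p = 0.0574) or without the double-positive A or double-negative C array. With the median of its probe sets the change was -0.16 (adjusted p = 0.0546).

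**Figure D3:**
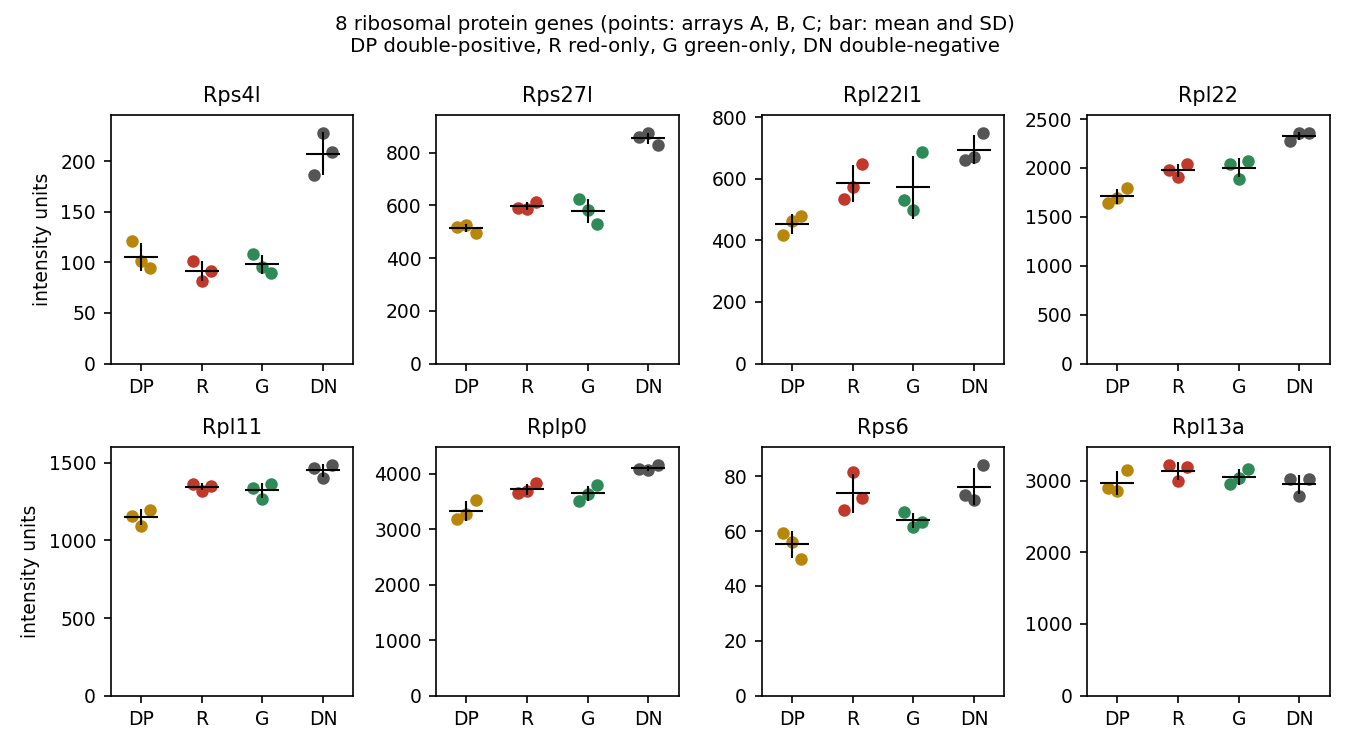
Intensity of 8 members in each array (points: experiments A, B and C; bars: mean and SD, n = 3) in double-positive (DP), red-only (R), green-only (G) and double-negative (DN) cells. Rps4l and Rps27l are low in all 3 reporter-positive populations, Rpl22, Rpl11 and Rplp0 are lowest in double-positive cells, and the Rpl13a groups overlap.

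Several members mutated in human Diamond-Blackfan anaemia, a failure of red cell production, were among those measured. Rps19 was at 1872, 1918 and 2053 units in double-positive cells, against 2440.5, 2263 and 2456 units in double-negative cells, and changed by -0.29 ± 0.07 (adjusted p = 0.00553). Rps26, a protein at the mRNA exit of the small subunit, changed by -0.29 ± 0.06 (adjusted p = 0.00322), with 2281 to 2343 units in double-positive cells and 2805 to 2858 units in double-negative cells. Rps10 did not pass, at -0.19 ± 0.07 (adjusted p = 0.0584), but passed with the experiment as a block (adjusted p = 0.0340) and under 5 other settings, with adjusted p-values of 0.0132 to 0.0413. Rps24 did not pass, at -0.08 ± 0.07. Rpl38, whose loss disturbs axial patterning in tail-short mice, changed by -0.20 ± 0.07 (adjusted p = 0.0396). Its call was lost without the double-positive C array (adjusted p = 0.137), without the double-positive B, red-only B or C, or double-negative A or B array, and under quantile normalization (0.295).

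The other members that fell in double-positive against double-negative cells, named after their values were seen, were Rpl27a (-0.36), Rps9 (-0.33), Rps19bp1 (-0.31), Rps20 (-0.29), Rpl8 (-0.26), Rps2 (-0.23), Rpl37a (-0.22), Rpl7 (-0.20) and Rpl27 (-0.19). The call of Rpl7 had an adjusted p of 0.0489 and was lost when any 1 array of these groups or of the red-only group was left out, and without the green-only A array. That of Rps19bp1 was lost without the double-positive B or double-negative A array. The 25 members that did not pass ranged from -0.35 for Rps25, whose arrays scattered widely, to 0.01 for Rpl13a, and those named here were also chosen after their values were seen. Rps25 was at 48.8, 50.2 and 48.6 units in double-positive cells, against 49.7, 83.4 and 62.1 units in double-negative cells. Rpl13a, a subunit protein also known for its part in silencing inflammatory mRNAs, was at 2898, 2850.0 and 3153 units in double-positive cells, against 3018, 2792 and 3029 units in double-negative cells. These arrays overlapped, and the change was 0.01 ± 0.07 (adjusted p = 0.944). Rpl4, Rps28, Rps29, Rps14 and Rps3a1 lay between -0.06 and -0.02, and the adjusted p of each was over 0.5.

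The size of the difference varied with the intensity of the probe set. All 5 members between 1000 and 2000 units fell, with a median of -0.29, as did 6 of 11 between 2000 and 3000 units (median -0.20) and 4 of 18 above 3000 units (median -0.12). Across the 34 members of at least 1000 units, intensity and log2 fold change had a Spearman correlation of 0.61. The points share the 12 arrays and the same scanner range, and the bright end of that range was not tested for compression. Of the 22 members that fell, 7 had another tested probe set. Those 14 other probe sets all had the same sign, and 8 of them passed in a fit of every probe set. Over all members 21 of 49 other tested probe sets passed lower in that fit, and 0 passed higher. Of all 27023 probe sets in that fit, 3981 passed lower and 3153 higher. They included probe sets of members that did not pass: Rpl35 (-0.34 to -0.22), Rpl41, Rpl7l1, Rps3, Rps7, Rps10 and Rps18. The other probe sets of Rpl13a, Rps4x, Rps14, Rps15, Rps24, Rps28 and Rps29 did not pass. Which members count as fallen thus rests in part on the probe set chosen.

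Fewer members passed in red-only cells. Against double-negative cells 5 of 47 fell and 0 rose, against 23.6% of all genes called, 12.7% lower and 10.9% higher. The median was -0.08, against -0.02 over all genes, and 37 of 47 were below 0, against 53.5% of all genes. Among genes at or over the 90th percentile of probe sets the median was 0.01, with 1405 of 2892 below 0. In 20 members the red-only arrays all lay below the double-negative arrays, against 20.6% of all genes, and in 1 they all lay above (17.3% of all genes). Rps4l fell most, at 101, 81.9 and 91.4 units in red-only cells, against 186, 228 and 209 in double-negative cells, a change of -1.15 ± 0.11 (adjusted p = 1.59e-05). Rpl12 (-0.69 ± 0.09), Rps27l (-0.51 ± 0.07) and Rpl22 (-0.24 ± 0.07) also fell. The fifth, Rpl14, changed by -0.34, but its arrays overlapped between red-only cells (15.7, 19.2 and 23.8 units) and double-negative cells (23.6, 25.8 and 27.4 units). The call of Rpl22 was lost under quantile normalization (adjusted p = 0.0736) and without the red-only A or B or double-negative B or C array. Counting the 34 brightest members alone, 1 fell. Rpl22l1, at -0.25, passed only with the experiment as a block (adjusted p = 0.0406).

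In green-only cells a like number of members passed. Of 47 members 6 fell and 0 rose against double-negative cells, where 20.7% of all genes were called, 11.4% lower and 9.34% higher. The median was -0.11, against -0.01 over all genes, and 44 were below 0 (51.9% of all genes). Among genes at or over the 90th percentile of probe sets the median was -0.03, with 1554 of 2892 below 0. In 23 members the green-only arrays all lay below the double-negative arrays (17.8% of all genes), and in 0 all above (14.8%). Rps4l was at 109, 95.3 and 90.01 units in green-only cells, against 186, 228 and 209 in double-negative cells, and changed by -1.05 ± 0.11 (adjusted p = 3.37e-05). Rpl12 (-0.75 ± 0.09), Rps27l (-0.56 ± 0.07), Rps19bp1 (-0.31 ± 0.09), Rpl22 (-0.22 ± 0.07) and Rplp2 (-0.22 ± 0.07) fell as well. The last 3 had adjusted p-values of 0.0212 to 0.0378, and the calls of Rpl22 and Rplp2 were lost when the green-only A or B, double-positive B or any double-negative array was left out. That of Rpl22 was also lost without green-only C, that of Rplp2 without double-positive C, and that of Rps19bp1 without green-only B or C or double-negative A. Without the green-only B or double-negative A array 3 members fell. With the experiment as a block Rpl22l1 (adjusted p = 0.0208) and Rpl7l1 (adjusted p = 0.0197) also passed. These 3 comparisons share the double-negative arrays and are not independent.

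The reporter-positive populations were also compared with each other. Against red-only cells, 2 of 47 members fell in double-positive cells, Rps6 (-0.39 ± 0.09, adjusted p = 0.0140) and Rpl11 (-0.23 ± 0.07, adjusted p = 0.0413), and 0 rose, where 12.1% of all genes were called, 6.17% lower and 5.94% higher. With the experiment as a block 4 members fell, Rpl22l1 (adjusted p = 0.00924) among them. The fold change was below 0 in 44 of 47 (49.4% of all genes), with a median of -0.12 against 0.00 over all genes. Among genes at or over the 90th percentile of probe sets the median was -0.05, with 1709 of 2892 below 0. In 31 members the double-positive arrays all lay below the red-only arrays (16.6% of all genes), and in 0 all above (14.4%). Rps6 was at 59.5, 56.0 and 49.9 units in double-positive cells, against 67.6, 81.6 and 71.9 units in red-only cells. The call of Rpl11 was lost without any 1 of the double-positive or red-only arrays, the green-only C or the double-negative A or C array. That of Rps6 was lost without the double-positive C or red-only B array, so the count was 0 without either of those. With the median of its probe sets Rps6 changed by -0.18 and did not pass (limma, adjusted p = 0.0821).

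Against green-only cells, 0 of 47 members passed in double-positive cells by limma, where 5.63% of all genes were called (2.77% lower and 2.85% higher), and 6 had an unadjusted p under 0.05. With the experiment as a block 1 passed, Rpl22l1 (adjusted p = 0.0288), and with an intensity trend and robust fit 2 passed. The median was -0.07, with 42 members below 0 (49.0% of all genes). Among genes at or over the 90th percentile of probe sets the median was 0.00, with 1435 of 2892 below 0. In 17 members the double-positive arrays all lay below the green-only arrays (10.9% of all genes), and in 1 all above (11.5%). In red-only against green-only cells 0 members passed, with 0 at an unadjusted p under 0.05, where 3.09% of all genes were called (1.77% lower and 1.32% higher). Here the median was 0.04, and 12 of the 47 were below 0 (50.6% of all genes). Genes at or over the 90th percentile had the same median, 0.04, with 1121 of 2892 below 0. In 1 member the red-only arrays all lay below the green-only arrays (9.31% of all genes), and in 5 all above (8.68%). Double-positive cells had the lowest mean of the 4 populations in 40 of 47 members, green-only cells in 4, red-only cells in 2 and double-negative cells in 1. Red-only cells had the highest mean in 10, green-only cells in 1 and double-negative cells in 36. In a test of any difference among the populations 13 of 47 members passed (32.3% of all genes).

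The paralogs were set against their partners within each array, which shows unequal change and not the change of either gene. Against double-negative cells, Rps4l minus Rps4x (log2) differed by -0.82 for double-positive cells, by -1.11 for red-only cells and by -0.97 for green-only cells. Rps4x did not pass on its own, with a log2 fold change of -0.13 ± 0.06 between double-positive and double-negative cells. Rps27l minus Rps27 differed by -0.62, -0.44 and -0.49 for these populations. The Rps27 probe set was dim (25.6 to 30.3 units). For Rps4l and Rps27l the 3 arrays of each reporter-positive population lay below the 3 double-negative arrays in all of these comparisons. Rpl22l1 minus Rpl22 differed by -0.16 between double-positive and double-negative cells. Rpl7l1 minus Rpl7 differed by 0.10 for double-positive, -0.11 for red-only and -0.13 for green-only against double-negative cells, and its arrays overlapped in each. It was higher in double-positive than in red-only cells by 0.21, and than in green-only cells by 0.23, with no overlap in either. With the median of each gene's probe sets these 2 differences were -0.091 and 0.048. With 3 arrays against 3 the smallest p of an exact permutation test is 0.1, and no difference passed after adjustment over 24 tests (smallest adjusted p 0.218, two-sided exact). Probes of near-identical genes can share signal.

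The interaction asked whether the differences between cells with and without each of the 2 reporters add up. It was taken as the double-positive value minus the red-only value, less the green-only value minus the double-negative value. The reporters are sort labels, so no effect of a reporter was measured. Rps4l (1.25 ± 0.16, adjusted p = 0.000473) and Rpl12 (0.75 ± 0.13, adjusted p = 0.00257) passed, of 47 members, against 10.5% of all genes called, 4.80% above 0 and 5.67% below 0. With the experiment as a block 4 passed, Rps27l (adjusted p = 0.0419) and Rpl7l1 (adjusted p = 0.0403) being added. In Rps4l and Rpl12, the level in double-positive cells was close to that in cells with 1 reporter. Of the members of at least 1000 units, 0 passed.

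Promoter sequence was taken from RefSeq (mouse build GRCm38.p6, 250 bases before to 50 bases after the start), and 44 members matched by symbol. A run of at least 8 C or T on the gene's strand, searched from 20 bases before to 30 bases after the annotated start, was present in 23 of 44 members (52.3%), against 21.5% of 27025 genes. A run of A or G of the same length was present in 6.82% of members and 24.7% of genes. The letters CCGGAAG, the core bound by ETS factors, occurred on either strand in the 300 bases of 47.7% of members and 9.93% of genes. The letters AAGATGG, part of the YY1 motif, occurred in 18.2% and 7.28%, and TATAAA in 13.6% and 15.7%. Motif shares were searched on both strands and could overlap. The pyrimidine run was present in 9 of 18 matched members that fell and 14 of 23 that did not pass in double-positive against double-negative cells. The sequences below show 5 members with large falls and 4 that did not pass and had small differences among the members with a run, with the run in capitals, on the strand of the gene. All 9 were taken from the 23 members that hold a run, so that each shows where its run lies. Positions in GRCm38.p6 are Rps27l chr9:66946063-66946092 (+), Rpl22l1 chr3:28805499-28805528 (+), Rps6 chr4:86857349-86857378 (-), Rpl27a chr7:109519186-109519215 (+), Rpl11 chr4:136053358-136053387 (-), Rpl13a chr7:45128722-45128751 (-), Rpl4 chr9:64173361-64173390 (+), Rps24 chr14:24490664-24490693 (+) and Rpl19 chr11:98026903-98026932 (+). The first 5 fell.
Rps27l: actcctctccaCTCCTCCCCgccgcctcta
Rpl22l1: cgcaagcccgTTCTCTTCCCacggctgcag
Rps6: ggaagtcgggCCTCTTTTTCgtgacgcctc
Rpl27a: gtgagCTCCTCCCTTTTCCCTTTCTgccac
Rpl11: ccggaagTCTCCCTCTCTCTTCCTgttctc
Rpl13a: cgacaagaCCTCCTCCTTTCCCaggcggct
Rpl4: gtgacaagTCTTTCCTTTTCCTgtgggagc
Rps24: ccgcgctggggTCCTTCCTTgcgcgttgat
Rpl19: ggggcttgggCTCTCCCCTTCgcagataat
The run starts 3 bases after the annotated start in Rpl13a, 2 bases after it in Rpl22l1 and 14 bases after it in Rpl11. In the others its first base lies before the annotated start. It is at -18 in Rpl4, -12 in Rps27l, -11 in Rpl19, -4 in Rpl27a, -3 in Rps24 and -1 in Rps6. The runs of Rpl4, Rps27l and Rpl19 end before that start, so they lie outside the annotated transcript. Whether transcripts of these cells begin at the annotated start was not tested.

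Genes that build ribosomes had a larger median difference than the ribosomal proteins. The lists here and below were not matched for probe set intensity, with which the difference varied among the ribosomal proteins. In double-positive against double-negative cells the 13 tested members under 1000 units had a median of -0.35. Of 39 tested genes of ribosome biogenesis, most of which act in the nucleolus, 34 fell and 0 rose in double-positive against double-negative cells, with a median of -0.63, where 17.6% of all genes fell and 13.9% rose. Lyar (-1.80 ± 0.10), Dkc1 (-1.22 ± 0.11), the pseudouridine synthase of ribosomal RNA, Rrs1 (-1.13) and Nop58 (-1.11) fell most. Against double-negative cells 32 of these genes fell in red-only cells (median -0.50), where 12.7% of all genes fell, and 35 fell in green-only cells (median -0.58), where 11.4% did. Of 11 genes of RNA polymerase I, which transcribes ribosomal RNA, 8 fell and 0 rose in double-positive cells, with a median of -0.47, among them Polr1a (-0.63 ± 0.14) and Polr1e (-0.61 ± 0.11). With the filter at the 90th percentile, which leaves fewer genes to test, 3 fell.

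Other parts of the translation machinery had smaller medians than ribosome biogenesis. Their counts stand against 17.6% of all genes that fell and 13.9% that rose in this comparison. Of 28 initiation factors 12 fell and 0 rose in double-positive against double-negative cells, with a median of -0.19, among them Eif1ax (-0.62 ± 0.07) and Eif2s2 (-0.58 ± 0.07). Of 9 elongation and termination factors 3 fell (Eef1b2, Gspt1 and Eef1d) and 0 rose. Of 14 genes outside the ribosomal proteins whose mRNAs carry the pyrimidine tract, 7 fell and 1 rose, with a median of -0.24. Naca (-0.84 ± 0.08) and Pabpc1 (-0.79 ± 0.09) were among those that fell, and Tpt1 (0.20 ± 0.06) rose. This list overlaps the others, since Npm1, Eif4b, Eif3e, Eif3f, Eif3h, Eef1a1, Eef1b2 and Eef2 are counted in them too. The call of Tpt1 was lost without any 1 double-positive array or the double-negative A or B array. Of 14 growth control genes 5 fell and 3 rose: Myc, which drives ribosome production, changed by -0.73 ± 0.12 and Akt1 by 0.86 ± 0.07. The 5 were 1 without the double-positive B or C or double-negative A array. Of 6 tested genes with S6 kinase symbols, 0 fell and 2 rose, Rps6kb2 (0.67 ± 0.11) and Rps6ka5 (0.34 ± 0.10). Without the double-positive B or double-negative C array 1 rose. The list was made by symbol and Rps6kb1 was not among those tested. Whether each product phosphorylates Rps6 was not examined. Fau, which encodes a ubiquitin-like protein fused to a small subunit protein, was the only 1 measured of 3 ribosomal genes that the symbol rule misses, at -0.00 ± 0.07.

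**Figure D4:**
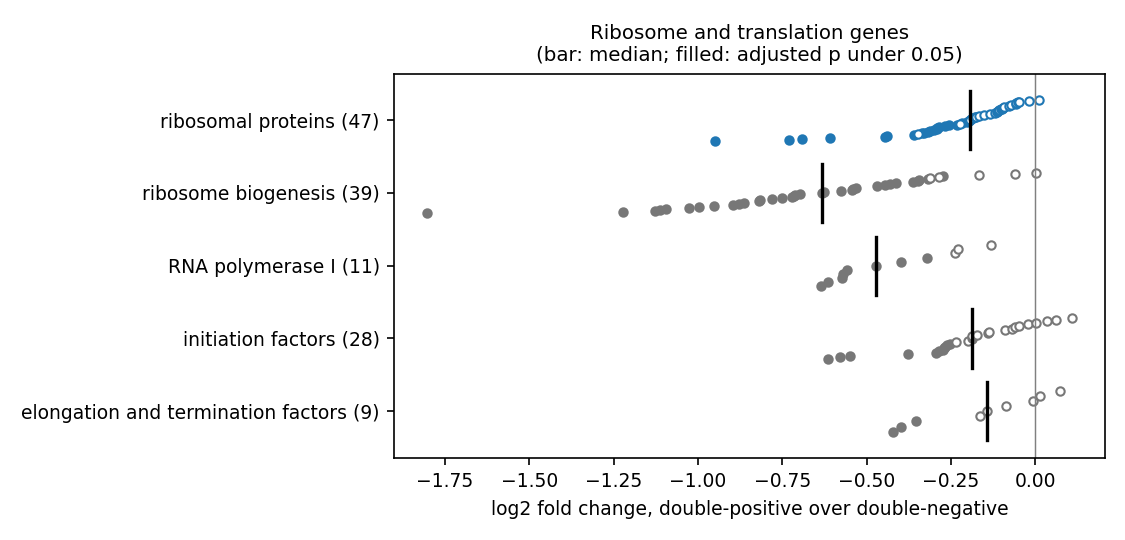
Log2 fold change, double-positive over double-negative, of the ribosomal protein genes and 4 gene lists (points: genes, filled where adjusted p is under 0.05; bars: medians; genes tested in parentheses). The median is -0.19 for ribosomal proteins, -0.63 for ribosome biogenesis, -0.47 for RNA polymerase I, -0.19 for initiation factors and -0.14 for elongation and termination factors.

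Cell cycle markers also had their lowest sums in double-positive and their highest in double-negative arrays. The summed intensity of 7 cell cycle markers was 1764 to 2150.4 units in double-positive, 2474 to 2692 in red-only, 2259 to 2392 in green-only and 3124 to 3275 in double-negative arrays. Of these 7, 6 fell in double-positive against double-negative cells, with a median of -0.70. All 6 pluripotent markers fell in each reporter-positive population, and 4 of 6 primitive blood markers did so, with sums of 63.2 to 109.9 units in double-positive and 1078 to 1972 units in double-negative arrays. Of 6 endoderm markers 2 fell in double-positive cells, and of 6 endothelial markers 0 changed. Of all genes 31.5% changed in that comparison and 17.6% fell. The part of these genes, and of the actin control ratio, in the difference of the ribosomal protein genes was not tested.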

How the data were processed

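Ribosomal protein genes and the lists beside them were chosen with earlier results of these data known. Biotinylated cRNA from 5 ug of total RNA was hybridised in 12 samples, per the labels. The deposited values are probe set intensity on a linear scale. The authors' software was MAS5, per the submitters' processing notes, with no version or scaling given, and the values have a floor of 2.09 units and no detection calls, so how they were made is not given in the sources used here. Populations were taken from the sample titles, since the sort protocol misprints the double-negative one. Of 45101 probe sets, 64 were controls, 34945 listed 1 gene, 932 several and 9160 none, and only the first kind was used. Each of 18193 genes kept its probe set with the highest mean, and 13698 passed a filter at the 40th percentile of probe sets (3.22, log2).

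The deposited intensity values were taken as log2(intensity + 4.10), the pseudocount being their 25th percentile, so fold changes of dim genes are understated. Fits used limma 3.58.1 (lmFit, eBayes, R 4.3.3) over all 12 arrays with 1 mean per population, and Benjamini-Hochberg adjustment over all genes tested at 0.05. Tests of a single comparison were two-sided. Exact permutation tests used scipy 1.17.1. On simulated data with known changes in 200 of 13698 genes, 56.6% of genes changed by 0.5 (log2) were recovered in the double-positive comparison with double-negative cells. Of those changed by 0.25, 3.20% were recovered. In the deposited data 31.5% of genes were called in that comparison, a far larger share, which makes the adjusted threshold easier to pass. The simulated recovery therefore does not give that of the deposited data. Named members were those with the largest changes past the threshold and no overlap between arrays, together with paralogs, stalk, 5S and disease genes; of each list up to 4 with the largest changes were named. The experiment letters were checked as pairs: deviations from group means correlated at 0.116 to 0.423 in all 18 pairs of the same experiment, so they pair the arrays. The main fit and the exact permutation tests did not use this pairing. The fit with the experiment as a block did. Alternatives covered pseudocount, filter, normalization, probe set choice, block and left-out arrays. The number of arrays, 3 per population, limits the precision.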

Additional observations from a re-analysis of the deposited data

Results flagged for a closer look

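In 2 of 47 members the difference between cells with and without one reporter depended on the other, by the interaction test in limma over all genes. Of all genes 10.5% were called in that test, 4.80% above 0 and 5.67% below 0. Rps4l had an interaction of 1.25 (log2), with 121, 101 and 94.5 units in double-positive, 101, 81.9 and 91.4 in red-only, 109, 95.3 and 90.01 in green-only and 186, 228 and 209 in double-negative arrays. Rpl12 had an interaction of 0.75, with 21.9, 17.0 and 18.3 units in double-positive, 19.3, 18.8 and 18.9 in red-only, 19.98, 16.6 and 17.7 in green-only and 34.3, 34.5 and 30.9 in double-negative arrays. Each is read by 1 single-gene probe set, so no second probe set of these genes bears on the values.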

How the results depend on the processing

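The members' median stayed below 0 in each comparison with double-negative cells under all alternatives, and 0 members rose in any pairwise comparison. Quantile normalization gave smaller medians, -0.13 (double-positive), -0.054 (red-only) and -0.072 (green-only) against double-negative, -0.088 for double-positive against red-only and -0.045 against green-only. With arrays left out, members that fell against double-negative cells numbered 13 to 22 (double-positive), 3 to 5 (red-only) and 3 to 6 (green-only), those in double-positive against red-only cells 0 to 2, and those passing the test of any difference 7 to 14. Medians without 1 array ran from -0.15 to -0.0896 for green-only against double-negative, from -0.10 to -0.057 for double-positive against green-only and from 0.011 to 0.049 for red-only against green-only cells. Median centring gave 10 green-only members and a median of -0.14, and the 6 arrays compared alone gave 3. The median of a gene's probe sets gave -0.11 for red-only against double-negative cells. In double-positive against red-only cells the 90th percentile filter and the trend with robust fit each gave 5, the median probe set and a pseudocount of 1 each gave 1, and the replicate block gave 4. Against green-only cells the filter, quantile normalization and block each gave 1 and the trend 2. The block gave 4 members in the interaction. It changed the call of Rps10 in double-positive, of Rpl22l1 in red-only and of Rpl22l1 and Rpl7l1 in green-only against double-negative cells. It also changed the call of Rpl22l1 in both comparisons of double-positive with a single-reporter population, and of Rpl7l1 and Rps27l in the interaction. Chosen after seeing the data were every probe set, members of at least 1000 units alone, and the list counts under each setting. Every probe set gave 42 of 96 lower for double-positive, 8 for red-only and 12 for green-only against double-negative cells. Of all 27023 probe sets in that fit, 3981, 2648 and 2490 passed lower in these comparisons, in the same order. In the test of any difference 23 of the 96 passed. Members of at least 1000 units alone gave 1 red-only, 2 green-only and 1 double-positive against red-only. They gave 0 in the interaction and 7 in the test of any difference. Rpl7l1 minus Rpl7, not called, was -0.045, 0.045, -0.091, 0.048 and 0.14 with the median probe set, in double-positive and red-only against double-negative, double-positive against red-only and green-only, and red-only against green-only cells. Of 3396 alternatives for named values, 0 reversed, 72 lost the call and 51 gained one. The cause of these moves was not tested.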
